A study of Mus musculus with 40 samples.

Results

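Guanylate-binding proteins (GBPs) and the IRGM proteins are interferon-inducible GTPases with which a cell acts against bacteria and parasites in its cytosol and in vacuoles. The genes described here are Gbp2 to Gbp9 and the immunity-related GTPases Irgm1 and Irgm2, 10 genes chosen by symbol from a table of 43430 gene rows of bone marrow-derived macrophages (BMDMs). Of these, 8 genes (Gbp2, Gbp3, Gbp4, Gbp7, Gbp8, Gbp9, Irgm1 and Irgm2) had a row under their own Ensembl identifier, and all 8 were among the 11853 rows that passed the filter on low counts. Gbp5 and Gbp6 had no row under their current identifiers. The span of the Gbp2b row (ENSMUSG00000040264, chr3:142496934-142619179, plus strand) overlaps 25411 bases of Gbp5 as annotated in GENCODE M21. The row starts after the start of Gbp5 in that annotation (142493978) but at its RefSeq start, and it also runs over Gbp7, Gm43802 and Gbp3. Its 5844 exon bases are fewer than the 6637 that GENCODE M21 gives Gbp5 alone, so how much of Gbp5 was counted in it is not known. The span of another row (ENSMUSG00000079362, chr5:105215699-105293699, minus strand) covers both Gbp6 and Gbp10. Both rows passed the filter. They are called Gbp5/Gbp2b and Gbp6/Gbp10 here and are given beside the 8 members but not counted with them, since the reads in such a row cannot be assigned to 1 gene.

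GBPs are large GTPases of the dynamin superfamily. They are transcribed after interferon binds its receptor, through transcription factors that include the interferon regulatory factors, and they assemble on bacterial surfaces and pathogen vacuoles, where they help to expose bacterial LPS to caspase-11 and bacterial DNA to the sensor AIM2. Mouse GBP genes lie in clusters on chromosomes 3 and 5. The IRGM proteins, Irgm1, Irgm2 and Igtp (also called Irgm3), sit on membranes of the cell itself and keep the effector members of the immunity-related GTPase (IRG) family inactive there. Irgm1 is known for its part in autophagy and in mitochondrial quality control, and Irgm2 for restraining the caspase-11 response to LPS in the cytosol.

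BMDMs were grown with M-CSF (20 ng/ml) from the marrow of 5 WT and 5 NDI1 mice of 8 to 14 weeks, labelled as strain C57/Bl6, and harvested on day 6. By the study's methods the line with the NDI1 allele had a mixed C57Bl/6 J/N background. NDI1 mice carry a yeast NADH dehydrogenase behind a lox-stop-lox cassette in Rosa26 and Vav-iCre, which acts in all hematopoietic cells. WT mice carry Vav-iCre without the NDI1 allele, so Cre was present in every culture. Cells of each mouse were left untreated, given LPS (100 ng/ml, a component of the outer membrane of Gram-negative bacteria) for 4 h, given piericidin A (500 nM, an inhibitor of mitochondrial complex I to which NDI1 is resistant), or given piericidin A 30 min before LPS. This gives 8 groups of 5 libraries, with each mouse in 4 groups. A lower level per library can reflect fewer cells that express a gene or less RNA per cell, which bulk libraries cannot tell apart.

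The 40 libraries held between 6950748 and 13552070 counts. All 8 macrophage markers passed the filter, and their summed level lay between 19700 and 38700 CPM (counts per 1e+06 counts of a library, after scaling between libraries). The 4 libraries of WT mouse 496 and the 4 of NDI1 mouse 503 stood apart from the other 32 on the second principal component, which held 7.32% of the variance. The summed level of 6 neutrophil markers was between 209 and 1210 CPM in the libraries of mouse 496 and between 196 and 331 CPM in those of mouse 503, against 21.1 to 77.2 CPM in the other 32. The highest of these values, 1210 CPM, was that of mouse 496 with piericidin A and LPS, and the median of that group was 70.2 CPM against 36.8 CPM in WT with LPS, with a higher sum in 5 of 5 WT mice. The part of these cells in the results was not tested beyond leaving both mice out. T or NK cell markers reached 14.4 CPM at most.

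The promoters of 6 of the 10 genes could be read from RefSeq (GRCm38.p6), 250 bases before to 50 after each start. They are shown because interferon-stimulated response elements (ISREs), bound by interferon regulatory factors, are sites through which interferon is known to act on this family. The ISRE core was searched on both strands as GAAA, any 2 bases and GAAA. All 6 genes held at least 1 match, whereas 3.44% of 32851 promoter windows of the same length did. A second start listed for Gbp3 held none. Capitals mark the matches in the 30 bases around them, each read 5′ to 3′ on the strand of its gene, so a match on the other strand shows TTTC in place of GAAA.
Gbp2 (chr3:142620594-142620623): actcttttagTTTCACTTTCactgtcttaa
Gbp3 (chr3:142559992-142560021): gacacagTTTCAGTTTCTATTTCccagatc
Gbp5 (chr3:142496759-142496788): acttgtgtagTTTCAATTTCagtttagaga
Gbp7 (chr3:142530273-142530302): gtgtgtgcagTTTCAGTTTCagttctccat
Irgm1 (chr11:48871428-48871457): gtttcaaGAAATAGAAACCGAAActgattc
Irgm2 (chr11:58214903-58214932): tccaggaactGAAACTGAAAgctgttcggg

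Gbp3 and Irgm1 held 2 overlapping matches each, and the others 1. The matches of the GBP genes lay on the strand opposite to the gene, and those of Irgm1 and Irgm2 on its own strand. In Gbp2, Gbp3, Gbp7, Irgm1 and Irgm2 the first base of the match lay 59, 45, 53, 30 and 64 bases before the start, and in Gbp5 165 bases before it. The gamma-activated site (GAS, searched as TTCNNNGAA on both strands) was found in 3 of the 6 genes (Gbp5, Gbp7 and Irgm2), against 8.30% of all windows. These matches are a description of letters and show no binding.

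Without treatment, the members differed widely in level. Compared per kilobase of exon in untreated WT BMDMs, Gbp2 had the highest mean at 21.2 ± 5.51 CPM per kb (SD, n = 5) and Irgm1 the next at 15.1 ± 2.70, with overlapping values, followed by Irgm2 at 9.22 ± 1.37 CPM per kb. With the deposited exon lengths, levels of Gbp7 (3.35 ± 0.854 CPM per kb), Gbp3 (2.81 ± 0.602) and Gbp9 (2.38 ± 1.07) did not differ from each other beyond their spread. Gbp8 (0.204 ± 0.116 CPM per kb) and Gbp4 (0.171 ± 0.117) were lowest and likewise overlapped, with 2 to 18 and 1 to 21 counts per library. With LPS, Gbp2 was again highest in WT at 1014 ± 172 CPM per kb, Irgm1 followed at 204 ± 30.1, and Gbp3 (117 ± 27.3) and Irgm2 (110 ± 15.3) overlapped. Gbp4 moved from the end of the order to 26.1 ± 13.1 CPM per kb, while Gbp8 was lowest at 0.717 ± 0.394 CPM per kb. The exon lengths are those of the deposited table, which the share of each transcript in use can depart from. They differ unevenly from those of GENCODE M21, at 10039 against 3265 bases for Gbp3, 11082 against 5614 for Gbp7 and 6929 against 3690 for Irgm2. For Irgm1 they are 7304 against 5810 and for Gbp4 4538 against 7494. The order and overlaps above rest on the deposited lengths, and with those of GENCODE M21 Gbp3 would stand higher against Irgm1, Irgm2 and Gbp9.

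**Figure D1:**
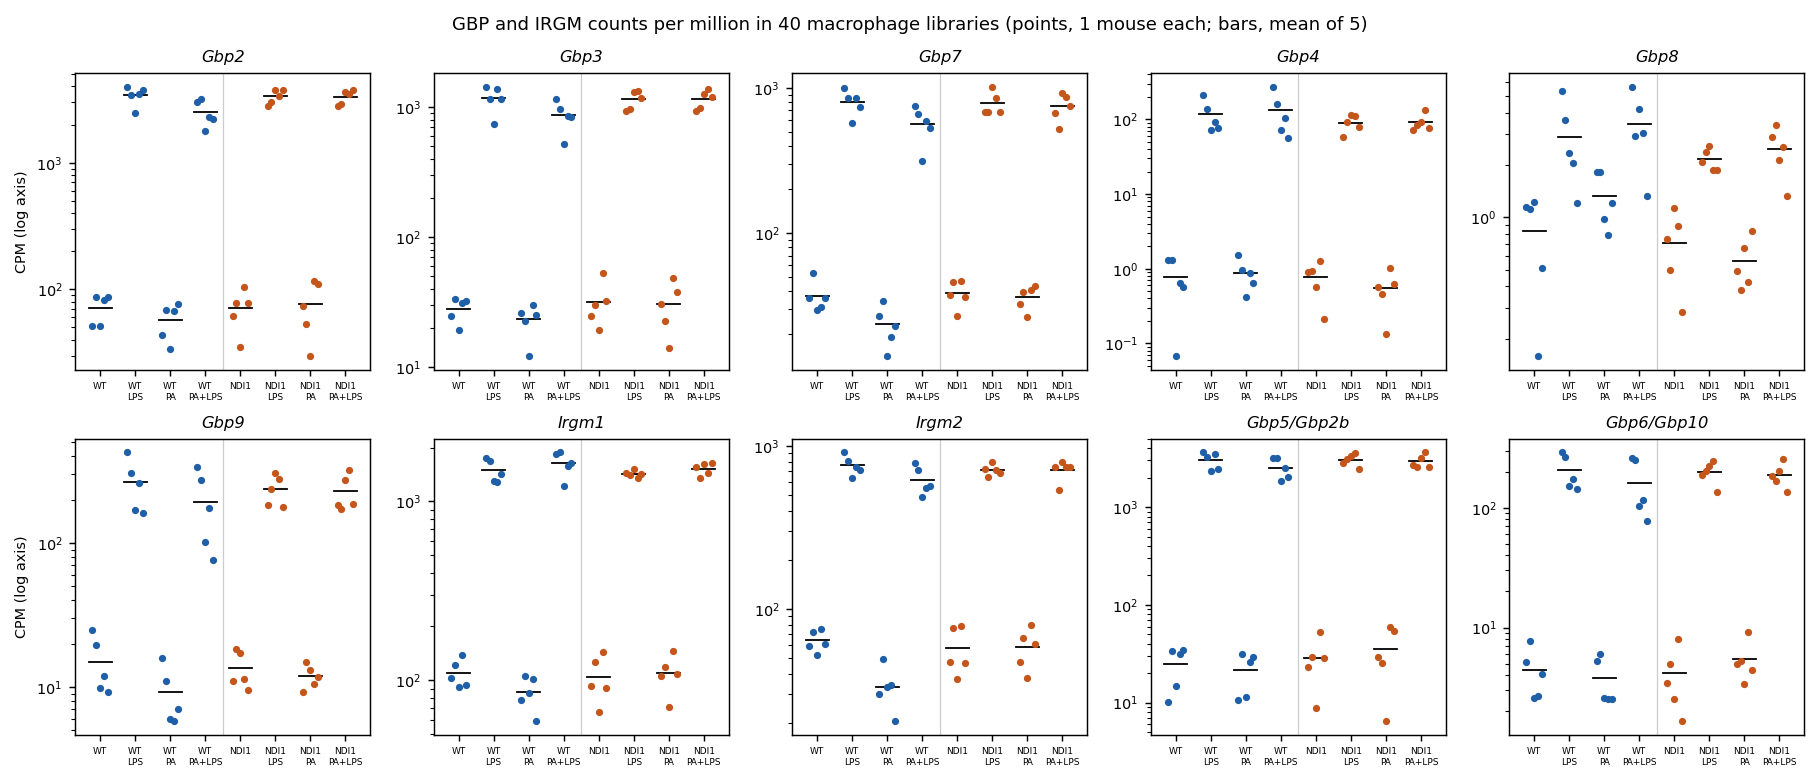
Level of each member and of the 2 merged rows in every library, in CPM on a log axis, for the 8 groups (PA, piericidin A). Points are mice, blue for WT and orange for NDI1, and bars are means of 5. LPS raised each panel in both genotypes, and in untreated against piericidin A-treated WT the points of Irgm2 did not overlap.

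The first comparison asks how far LPS raised these genes. All 8 members rose with LPS in WT and all 8 in NDI1 BMDMs, where 31.5% of the 11853 genes tested were called higher in either genotype and 31.0% lower in WT (edgeR quasi-likelihood test, adjusted p under 0.05). The median log2 fold change of the members was 4.29 in WT and 4.24 in NDI1, against -0.01 over all genes tested in each. Both merged rows rose too. LPS levels lay above untreated levels without overlap for 7 of the 8 members in WT, all except Gbp8, and for all 8 in NDI1, where 26.0% and 24.8% of all genes were higher without overlap. The median sum of the 7 stromal or endothelial markers was 63.4 CPM with LPS against 14.5 CPM untreated in WT, and 59.6 against 14.7 CPM in NDI1, with 3 of 7 called higher in each. The dendritic cell markers, low throughout, had a median sum of 9.12 CPM with LPS against 3.17 CPM untreated in WT and of 7.70 against 3.92 CPM in NDI1, with 1 of 4 tested called higher in each. The part of these markers in the rise was not tested.

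Among the chromosome 3 genes, Gbp2 (ENSMUSG00000028270, chr3:142620602-142638008), which with Gbp5 carries a lipid anchor and acts in the AIM2 and caspase-11 responses, had the highest level. Its values in WT were 51.0, 86.3, 51.6, 82.1 and 86.8 CPM untreated and 3983, 3404, 2462, 3500 and 3740 CPM with LPS. The log2 fold change was 5.58 ± 0.32 (SE), or 47.7-fold (adjusted p = 2.41e-17). In NDI1 Gbp2 rose by 5.54 ± 0.32 on the log2 scale. Gbp3 (chr3:142560052-142573209), of the same cluster, rose 41.5-fold in WT and 36.0-fold in NDI1.

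Gbp7 (ENSMUSG00000040253, chr3:142530338-142550083), which has been linked to the assembly of the phagosomal NADPH oxidase, was at 35.8, 53.2, 29.7, 30.8 and 35.9 CPM in untreated WT and at 1008, 854.5, 573.2, 856.8 and 740.7 CPM with LPS. It rose 21.7-fold in WT (log2 4.44 ± 0.25, adjusted p = 8.31e-18) and 20.4-fold in NDI1. Of its annotated exon bases, 11.3% overlap the model Gm43802. The Gbp5/Gbp2b row, whose span covers most of the inflammasome-linked Gbp5, rose 122-fold in WT from a mean of 24.9 ± 11.5 to 3037 ± 602 CPM, and 107-fold in NDI1.

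Of the chromosome 5 genes, Gbp4 (ENSMUSG00000079363, chr5:105115767-105139586) had the largest fold change of the members. Untreated WT libraries held 16, 21, 1, 8 and 9 counts (1.30, 1.31, 0.0677, 0.636 and 0.571 CPM), and LPS libraries 213.7, 137.9, 72.2, 91.6 and 77.2 CPM. The rise was 151-fold in WT (log2 7.24 ± 0.48, adjusted p = 1.06e-15) and 117-fold in NDI1, and its size rests on these low counts. Gbp9 (chr5:105078394-105139539) rose 17.6-fold in WT and 17.5-fold in NDI1, and the Gbp6/Gbp10 row 45.9-fold and 48.4-fold.

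Gbp8 (ENSMUSG00000034438, chr5:105014153-105139540) responded least. Its WT values were 1.14, 1.12, 1.22, 0.159 and 0.508 CPM untreated and 5.31, 3.63, 2.34, 2.06 and 1.21 CPM with LPS, so that the lowest LPS library lay just under the highest untreated one. The log2 fold change was 1.80 ± 0.40 in WT (adjusted p = 0.000206) and 1.59 ± 0.42 in NDI1 (adjusted p = 0.00118). Gbp4, Gbp8 and Gbp9 share 60 or 61 exon bases with each other. Of the 75-base stretches of Gbp6 transcripts, 42.7% also occur at another locus, mostly Gbp10, so the merged row of these genes is uncertain.

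Both IRGM genes rose in every mouse. Irgm1 (ENSMUSG00000046879, chr11:48861968-48871683) was at 103.6, 121.8, 91.7, 138.4 and 94.6 CPM in untreated WT and at 1752, 1691, 1303, 1278 and 1425 CPM with LPS, a 13.5-fold rise (log2 3.76 ± 0.19, adjusted p = 1.27e-18). In NDI1 it rose 13.7-fold. Irgm2 (ENSMUSG00000069874, chr11:58199618-58222779) rose 11.9-fold in WT (log2 3.58 ± 0.22) and 12.5-fold in NDI1 (log2 3.64 ± 0.22). Irgm2 shares 4.39% of its exon bases with Igtp.

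The LPS effect did not differ between the genotypes for any member (0 of 8 called, 0% of all genes; 0 at an unadjusted p under 0.05 and 0 with DESeq2). The size of these folds depends on the scaling, since with library totals alone the median log2 fold change of all genes with LPS in WT moved to -0.79 and the split of called genes from 3738 higher and 3673 lower to 1732 higher and 7864 lower. Irgm1 then rose by 2.98 in WT on the log2 scale. With that scaling only Gbp8 in NDI1 was no longer called (adjusted p = 0.0716). With piericidin A present as well, LPS raised all 8 members in WT, where 25.8% of genes were called higher, and all 8 in NDI1, where 30.6% were, with median log2 fold changes of 4.49 and 4.31.

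**Figure D2:**
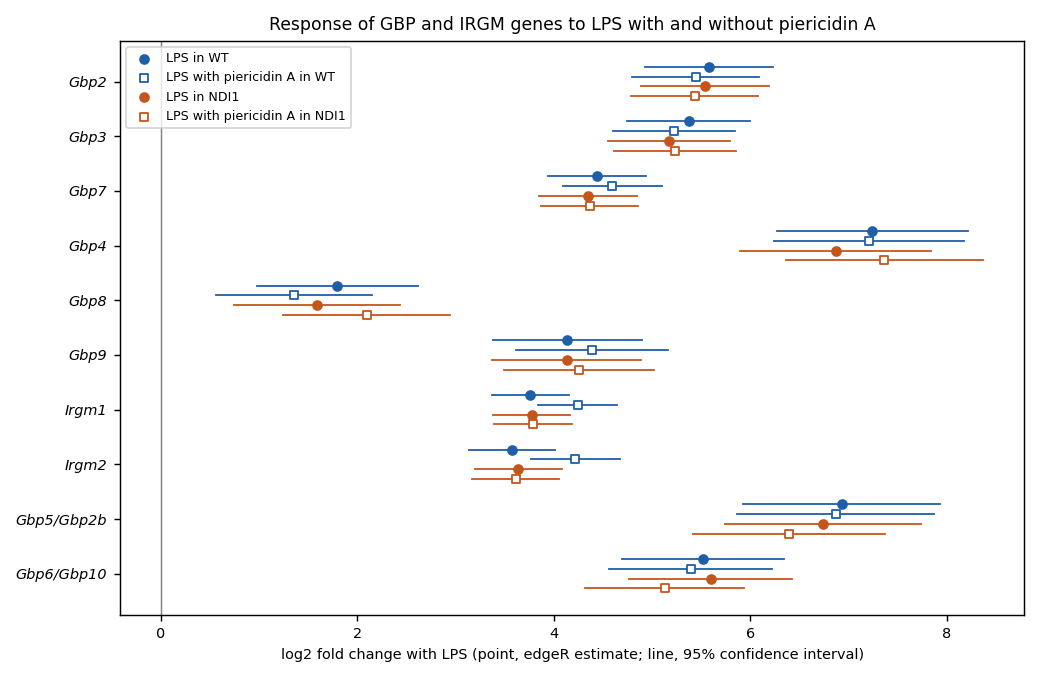
Log2 fold change with LPS of each member and merged row in WT (blue) and NDI1 (orange), without piericidin A (filled circles) and with it (open squares). Points are edgeR estimates and lines 95% confidence intervals. Each interval lies above 0, from Gbp8 at the low end to Gbp4 at the high end, and the 4 intervals of each gene overlap.

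The second comparison asks whether inhibition of complex I changed these genes in resting cells. In WT BMDMs without LPS, piericidin A lowered 2 of the 8 members, Irgm2 and Gbp7, where 7.05% of all genes were called lower and 7.79% higher. None rose. The median log2 change of the members was -0.33, against 0.00 over all genes. Markers of other cells moved with this comparison. The neutrophil marker sum was higher with piericidin A in 5 of 5 WT mice, from 209 to 616 CPM in mouse 496, and its group median was 34.3 CPM against 30.0 CPM untreated. All 5 neutrophil markers tested had positive log2 changes (0.72 to 1.76, median 1.35), of which 0 were called by edgeR (1 at an unadjusted p under 0.05) and 3 with the mouse as a block. The summed level of 7 stromal or endothelial markers had a median of 27.4 CPM against 14.5 CPM, and 1 of the 7 was called higher. The part of these markers in the falls below was not tested beyond leaving out mice 496 and 503.

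Irgm2 was at 59.3, 72.4, 52.0, 74.8 and 61.0 CPM in untreated WT cells of mice 449, 452, 453, 496 and 520, and at 30.1, 48.9, 33.2, 34.0 and 20.3 CPM in the piericidin A-treated cells of the same mice. It was lower in 5 of 5 mice and the groups did not overlap, as for 5.80% of all genes in that direction. The level fell by 0.94 ± 0.20 on the log2 scale (adjusted p = 0.00129), to 0.522 of the untreated level. Without mice 496 and 503 it fell by 0.88 (adjusted p = 0.0107).

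Gbp7 was at 27.0, 34.2, 14.2, 19.3 and 22.9 CPM with piericidin A, in the same order of mice. It was lower in 5 of 5 mice, although the groups overlapped. Gbp7 fell by 0.66 ± 0.22 on the log2 scale (adjusted p = 0.0371). The call was lost on leaving out any of the 5 WT mice or NDI1 mouse 447, with adjusted p between 0.0509 and 0.115, and without mice 496 and 503 together (adjusted p = 0.116).

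The other 6 members were not called. Gbp9 was at 24.8, 19.5, 9.88, 11.9 and 9.20 CPM untreated and 15.9, 11.1, 6.04, 5.78 and 7.09 CPM with piericidin A, lower in 5 of 5 mice (log2 -0.71 ± 0.35, adjusted p = 0.176). With the mouse as a block, which removes the differences between mice, Gbp9 was called (adjusted p = 0.00169), so that 3 of 8 members were lower, where 16.9% of all genes were. Irgm1 was lower in 5 of 5 mice (log2 -0.35 ± 0.17, adjusted p = 0.174, and 0.0628 with the block) and so was Gbp2 (log2 -0.31 ± 0.27, adjusted p = 0.475). Irgm1 was called only when libraries were scaled by their totals (adjusted p = 0.0334), which moved the median of all genes to -0.13 and the split of calls from 923 higher and 836 lower to 503 higher and 1708 lower. Gbp3 (log2 -0.28), Gbp4 (0.21) and Gbp8 (0.67) and both merged rows (-0.20 and -0.22) did not pass the test.

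In NDI1 BMDMs piericidin A changed 0 of 8 members, with 0 at an unadjusted p under 0.05, 0 with the block and 0 with DESeq2, and 0% of all genes were called. Irgm2 was at 47.1, 76.3, 37.1, 78.6 and 46.2 CPM in untreated NDI1 cells of mice 447, 460, 461, 503 and 521 and at 47.3, 66.5, 37.5, 79.1 and 61.0 CPM with piericidin A. The 95% confidence interval of its log2 change ran from -0.37 to 0.43. For Gbp7 it ran from -0.53 to 0.35 and for Irgm1 from -0.28 to 0.43.

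The test of the difference between these effects bears on whether NDI1 altered them. The piericidin A effect on Irgm2 was higher in NDI1 than in WT by 0.97 ± 0.28 on the log2 scale, which did not pass in the model without a block (0 of 8 members called, where 1.27% of genes were; 1 at an unadjusted p under 0.05; adjusted p = 0.0785 for Irgm2) and did with the mouse as a block (0.99, adjusted p = 0.00825), where 8.96% of genes were called. DESeq2 also called it (adjusted p = 0.0265). The differences for Gbp7 (0.57 ± 0.31, adjusted p = 0.502, and 0.0916 with the block), Gbp9 (0.53 ± 0.49) and Irgm1 (0.43 ± 0.25) did not pass. Comparing the genotypes directly under piericidin A, Irgm2 was 1.75-fold higher in NDI1 than in WT (log2 0.80 ± 0.20, adjusted p = 0.00785), the only member called, where 7.80% of genes were called and 3.48% called higher. This call was lost without WT mouse 520 (adjusted p = 0.0552), without mice 496 and 503 (log2 0.68, adjusted p = 0.0809) and in a fit of the compared libraries alone (adjusted p = 0.0714). In the same comparison all 5 neutrophil markers tested had negative log2 differences (median -1.24), as did 5 of 7 stromal or endothelial markers (median -0.70) and all 4 dendritic cell markers (median -0.32). Of these markers 0 were called by edgeR (1, a stromal or endothelial one, at an unadjusted p under 0.05), and their part in the difference was not tested beyond leaving out mice. Gbp7 (log2 0.63 ± 0.22, adjusted p = 0.0713) and Gbp8 (-1.22 ± 0.42, adjusted p = 0.068) were not called. Without treatment and with LPS alone, 0 of 8 members differed between the genotypes, and 0% of all genes did (0 members at an unadjusted p under 0.05 and 0 with DESeq2 in each).

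**Figure D3:**
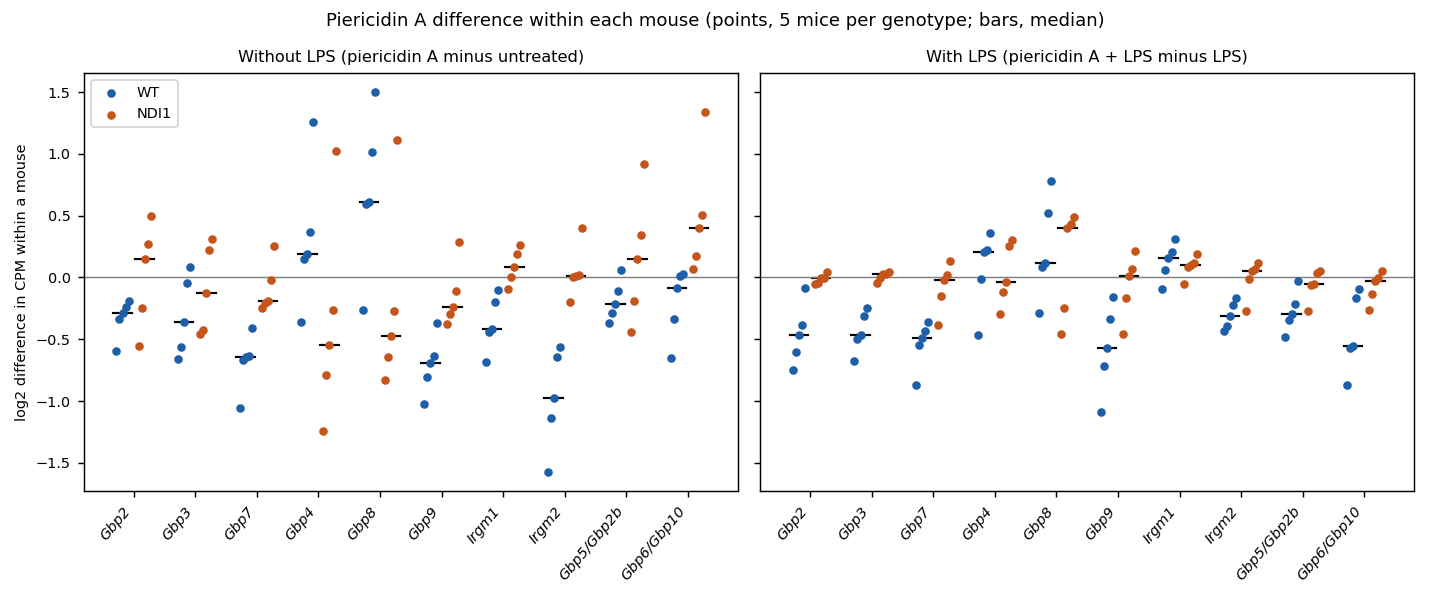
Difference in log2 CPM between piericidin A-treated and untreated cells of the same mouse, without LPS (left) and with LPS (right), for each member and merged row. Points are mice, 5 per genotype (blue, WT; orange, NDI1), and bars are medians. Without LPS, Irgm2 ranged from -1.58 to -0.57 in WT and from -0.20 to 0.40 in NDI1, and with LPS the NDI1 points of Gbp2 and Gbp3 lie within 0.06 of 0.

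The third comparison asks whether piericidin A changed the level that the genes reached with LPS. In LPS-treated WT, 0 of 8 members were called, where 16.7% of all genes were (7.81% higher and 8.92% lower). Only Gbp7 had an unadjusted p under 0.05, and DESeq2 called 0. The members' median log2 change was -0.36, against -0.02 over all genes. With the mouse as a block, 3 of 8 members were lower, Gbp3, Gbp7 and Gbp9, where 34.5% of all genes were called and 18.9% called lower, and so was the Gbp6/Gbp10 row (adjusted p = 0.0162). Of the neutrophil markers 4 of 5 had positive log2 changes (median 1.36), with 0 called by edgeR (0 at an unadjusted p under 0.05) and 3 with the block, and the median stromal or endothelial sum was 72.7 CPM against 63.4 CPM. Their part was not tested beyond leaving out mice 496 and 503.

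Gbp7 was at 747.2, 666.8, 314.4, 587.7 and 526.8 CPM in WT with both agents, below the LPS level of the same mouse in 5 of 5 mice. Its log2 change was -0.50 ± 0.21 (adjusted p = 0.0973), and with the block -0.54 (adjusted p = 0.00623). Gbp9 was at 429.0, 305.6, 168.5, 260.9 and 160.8 CPM with LPS and 340.1, 274.2, 102.2, 175.2 and 75.7 CPM with both. Its log2 change was -0.45 ± 0.33 (adjusted p = 0.355), and with the block -0.55 (adjusted p = 0.00328). For Gbp3 these values were -0.43 ± 0.26 (adjusted p = 0.254) and -0.44 (adjusted p = 0.0343).

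Gbp2 was at 3043, 3203, 1783, 2307 and 2231 CPM with both agents, below its LPS level in 5 of 5 mice, with a log2 change of -0.44 ± 0.26 (adjusted p = 0.255, and 0.0866 with the block). Irgm2 was at 917.3, 803.6, 635.7, 743.6 and 707.6 CPM with LPS and 786.6, 714.2, 483.8, 552.0 and 571.2 CPM with both, a log2 change of -0.29 ± 0.20 (adjusted p = 0.314, and 0.159 with the block). Irgm1 was higher in 4 of 5 mice at 1829, 1888, 1219, 1582 and 1640 CPM, with a log2 change of 0.13 ± 0.17 (adjusted p = 0.642). Irgm1 and Irgm2 thus had estimates of opposite sign, and neither was called. Gbp4 and Gbp8 were at log2 changes of 0.17 ± 0.33 and 0.22 ± 0.38.

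Since the level of Irgm2 was lower before LPS and its level with LPS was not called as changed, its rise with LPS was 18.6-fold in the presence of piericidin A and 11.9-fold without. That difference of 0.65 ± 0.28 on the log2 scale was not called (adjusted p = 0.196, and 0.0565 with the block), and 0 of 8 members were, where 4.75% of genes were (1 at an unadjusted p under 0.05, 0 with DESeq2). In LPS-treated NDI1 cells piericidin A changed 0 of 8 members (0% of all genes; 0 at an unadjusted p under 0.05, 0 with the block and 0 with DESeq2). The members' log2 changes there lay between -0.07 and 0.18, and the within-mouse differences of Gbp2 between -0.05 and 0.05. The difference between genotypes was not called for any member (0 of 8, where 0.979% of genes were; 0 at an unadjusted p under 0.05; 0 with the block, where 9.51% of genes were, and 0 with DESeq2), nor was NDI1 against WT with both agents (0 of 8, where 12.0% of genes were; 0 at an unadjusted p under 0.05 and 0 with DESeq2).

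The 13 other IRG genes that were listed, of which 12 were tested, include Igtp and the effector GTPases that the IRGM proteins hold in check. With LPS in WT 11 were higher and 1, Irgq, was lower, where 31.5% of all genes were higher and 31.0% lower. Iigp1 rose by 6.72 ± 0.62 on the log2 scale and reached 984 ± 473 CPM. Tgtp1 had 0 to 2 counts in the untreated WT libraries and reached 15.5 ± 8.68 CPM, and the size of its rise (log2 7.85 ± 0.64) rests on those low counts. Igtp rose 27.0-fold to 719 ± 105 CPM and Ifi47 23.0-fold to 1541 ± 276 CPM. Tgtp2, Gm12185, Gm12250, Gm4951, F830016B08Rik and the paired genes 9930111J21Rik1 and 9930111J21Rik2 rose by 5.79, 5.09, 4.52, 4.01, 2.83, 2.35 and 2.26 on the log2 scale. Irgc1 had at most 7 counts in a WT library and was not tested, and Gbp11, a polymorphic pseudogene, at most 11.

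Piericidin A in resting WT lowered 3 of these 12, Ifi47 (log2 -0.79 ± 0.27, adjusted p = 0.0392), 9930111J21Rik1 (-1.30 ± 0.28) and 9930111J21Rik2 (-1.39 ± 0.29), and raised none, where 7.05% of all genes were called lower. The number called, all lower, was 7 with the block, where 16.9% of genes were, and 5 with DESeq2, where 1151 of 11853 genes were lower. It was 5 without NDI1 mouse 503 and 2 without mice 496 and 503. The counts on leaving out mice are given without the share of all genes, so they are not read as a result about these genes. 9930111J21Rik2 ranged from 16.0 to 28.2 CPM untreated and from 3.94 to 13.3 CPM with piericidin A, so the groups did not overlap, as for 5.80% of all genes in that direction. Igtp was at log2 -0.54 ± 0.20 (adjusted p = 0.0583, and 0.00922 with the block). Under LPS 0 of 12 were called, where 16.7% of genes were (3 at an unadjusted p under 0.05). DESeq2 called 1, where 2196 of 11853 genes were called, and the block fit 4, all lower, where 18.9% of genes were lower. In NDI1 piericidin A changed 0 of 12 with or without LPS (0 at an unadjusted p under 0.05 in each).

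GBP and IRG genes are known targets of interferon signalling, so 20 genes of that pathway were read in the same libraries. Ifnb1, the gene of interferon-β, had 0 counts in the 10 untreated libraries. With piericidin A alone it had 1 to 6 counts in WT, a change that was not called, and 0 in every NDI1 library. It had 5 to 23 counts in WT with LPS (median 2.14 CPM) and 70 to 884 counts in WT with both agents (median 53.2 CPM, from 8.96 to 117.6 CPM). Piericidin A thus raised Ifnb1 in LPS-treated WT by 4.94 ± 0.61 on the log2 scale, or 30.7-fold (adjusted p = 6.18e-06). In NDI1 its median was 1.62 CPM with LPS and 1.44 CPM with both agents, and the piericidin A effect differed between the genotypes by -4.87 ± 0.92 (adjusted p = 0.0079). Ifng, the gene of interferon-γ, was at 0 in every WT library and had at most 3 counts in an NDI1 library.

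LPS in WT raised 17 of the 19 tested pathway genes and lowered 1, Ifngr1, where 31.5% of all genes were higher and 31.0% lower. Apart from Ifnb1, the largest log2 changes were those of Socs3 (7.51), Socs1 (6.64), Usp18 (5.28), Jak2 (4.44) and Irf7 (3.30). The fitted value of Ifnb1 rests on a group at 0 and gives neither a bound nor a place in this order. Irf1, a transcription factor of the GBP promoters, rose by 3.06 ± 0.28. Piericidin A under LPS raised 3 of the 19 in WT, Ifnb1, Irf8 (1.16 ± 0.28) and Socs1 (1.04 ± 0.28, an inhibitor of the receptor kinases), and lowered 5. Among the latter were the receptor chains Ifnar1 (-0.81 ± 0.18) and Ifngr2 (-0.70 ± 0.12) and the kinases Tyk2 (-0.59 ± 0.15) and Jak2 (-0.57 ± 0.18). Irf1 was at 0.71 ± 0.28 (adjusted p = 0.0571). These 8 calls stand beside 16.7% of all genes called. With the block 15 of the 19 were called, 4 higher and 11 lower, where 34.5% of genes were, and without WT mouse 496 there were 5, 3 higher and 2 lower, where 845 of 11848 genes were. In resting WT cells piericidin A raised Socs1 (1.59 ± 0.37) and Socs3 (1.40 ± 0.33) and lowered Stat2, Irf2 and Irf3, 5 calls where 14.8% of all genes were called. These became 10 with the block, where 34.2% were, and 1 without WT mouse 496, where 788 of 11848 were. There were 2 without WT mouse 520 and 2 without mice 496 and 503, counts given without the share of all genes and not read as a result about this list. In NDI1 it changed 0 of 19 with or without LPS (0 at an unadjusted p under 0.05 in each).

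**Figure D4:**
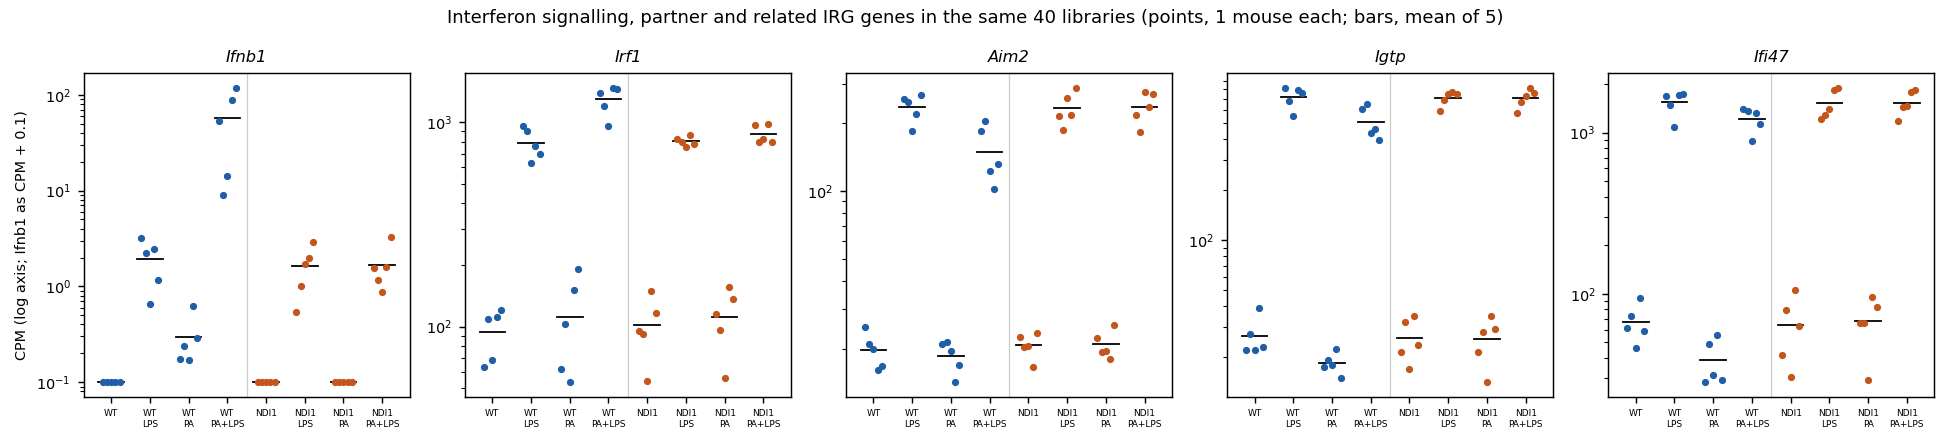
Levels of Ifnb1, Irf1, Aim2, Igtp and Ifi47 in every library, in CPM on a log axis (Ifnb1 as CPM + 0.1, so that 0 can be drawn), for the 8 groups (PA, piericidin A). Points are mice (blue, WT; orange, NDI1) and bars means of 5. Ifnb1 in WT with both agents lies between 8.96 and 117.6 CPM, above every other group, whereas the mean of Aim2 there (149 CPM) is below that in WT with LPS (235 CPM).

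A list of 25 genes whose products work with GBPs and IRGs, the inflammasome proteins, the autophagy conjugation machinery and the enzymes that attach their lipid anchors, was read in the same way. LPS in WT raised 17 and lowered 5, where 31.5% of all genes were higher and 31.0% lower. The largest changes were those of Il1b (log2 8.84), Nod1 (4.13), Nlrp3 (4.13), Nod2 (4.05), Aim2 (3.58) and Rnf213 (3.18). Casp4, the mouse caspase-11 gene, rose by 3.11 ± 0.27.

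Piericidin A under LPS in WT lowered 5 of the 25, Il18 (-0.92 ± 0.22), Casp1 (-0.70 ± 0.19), the DNA sensor Aim2 (-0.66 ± 0.16, adjusted p = 0.00418), the farnesyltransferase subunit gene Fnta (-0.53 ± 0.16) and Atg16l1 (-0.37 ± 0.12). It raised 3, the autophagy genes Gabarapl1 (0.64 ± 0.14) and Atg7 (0.57 ± 0.10) and the ubiquitin ligase gene Traf6 (0.36 ± 0.12). Casp4 was at -0.36 ± 0.25 and was not called (adjusted p = 0.335). The number called was 8 in all, where 16.7% of genes were, 17 with the block, where 34.5% were, and 4 without WT mouse 496, where 845 of 11848 were. It was 3 without WT mouse 520 and 4 without mice 496 and 503, both given without the share of all genes. In resting WT cells 6 were called, where 14.8% of genes were, Il1b, Gabarap, Traf6 and Atg12 higher and Rnf213 and Fnta lower, against 13 with the block, where 34.2% of genes were. There were 2 without WT mouse 496, 2 without WT mouse 520 and 3 without mice 496 and 503. Counts given without the share of all genes are not read as a result about this list. In NDI1 0 of 25 were called with or without LPS (0 at an unadjusted p under 0.05 in each).

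Over the 8 group means of log2 CPM, each centred on its own mean, the other genes whose pattern lay nearest to the members' median were Enpp4 (root mean square distance 0.08), Ifi209 (0.11), Nod1 (0.13), Gnb4 (0.14) and Gm4951 (0.15), the last an IRG gene of the list above. Among the members, Gbp7 (0.08) and Gbp9 (0.11) lay nearest to that median and Gbp4 (1.32) and Gbp8 farthest. Enpp4, which encodes a phosphodiesterase, went from 11.5 ± 3.17 to 236 ± 35.5 CPM with LPS in WT. This is a likeness over 8 groups of 5 libraries with no test.

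The members also varied between mice within a group. Over the deviations of the 40 libraries from their group means, which share mice and scaling factors, Gbp2 went with Gbp3 (r = 0.90) and with the Gbp5/Gbp2b row (0.93), Irgm1 with Irgm2 (0.92) and Gbp4 with the Gbp6/Gbp10 row (0.84). Pairs on different chromosomes ranged from -0.16 for Gbp2 and Gbp8 to 0.70 for Gbp7 and the Gbp6/Gbp10 row. Gbp4 and Gbp8 of the chromosome 5 cluster had 0.38, and Gbp8, with its low counts, had none over 0.55. The 4 pairs of highest correlation thus each lay on 1 chromosome.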

How the data were processed

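RNA-seq was performed on BMDMs of 5 WT and 5 NDI1 mice under 4 treatments, 40 libraries in all. The authors deposited raw counts per gene. Per the labels and the study's methods, reads were trimmed with Trimmomatic, aligned to mm10 with STAR and counted in exons with HTSeq. The annotation release, strand setting and treatment of reads with several matches are not given in the sources used here. The table also deposited exon lengths and 1 column of reads assigned to no library, which was not used. Of 43430 rows, 42462 matched a symbol in GENCODE M21 (GRCm38) and 968 did not.

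Groups and mice were taken from the labels. The count models were edgeR 4.0.16 fits (R 4.3.3): filterByExpr, TMM factors, a quasi-likelihood fit with 1 mean per group over 40 libraries, 17 contrasts, and p-values adjusted by Benjamini-Hochberg over 11853 genes with a threshold of 0.05. CPM values use library totals scaled by TMM. Log2 values used a prior count of 2. Errors of fold changes follow from the F statistic of each test, and tests are two-sided. P-values of the fit without a block measure the spread between libraries of a group, which are of different mice, and treat the 4 libraries of a mouse as independent. Those of the block fit measure the spread left within mice. The methods name no block, so the mouse as a block is an alternative. The 4 libraries of a mouse carry its number, which pairs them: their deviations from group means had a mean correlation of 0.453 over 60 pairs (0.0995 to 0.769), against -0.107 over 240 pairs of different mice. No 2 libraries of a group were duplicates (chi-square per degree of freedom 9.35 to 77.3 over the 80 pairs within groups). The models were also run on simulated counts drawn without an effect of the mouse, which cannot decide between the fits with and without a block. Library totals of 6950748 to 13552070 counts set the precision, and counts without molecular identifiers cover counting error only.

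Named are the 10 members, other listed GBP and IRG genes, the listed interferon and partner genes that passed with LPS or with piericidin A under LPS in WT (at most 6 by size per list and comparison, with Ifnb1, Ifng, Irf1, Casp4 and Aim2 in any case), and the 5 genes nearest in pattern. The remaining interferon and partner genes named, those beyond the 6 largest and those called in resting WT, were named after their values were seen. A gene of the interferon list that the rule names is not reported here. The members and lists were chosen with earlier results of these data known. Alternatives were DESeq2 1.42.0, RLE factors, library totals, other filters, only the compared libraries, the block, an added threshold on size, and leaving out each mouse. Leaving out mice 496 and 503 together was chosen after seeing the data.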

Additional observations from a re-analysis of the deposited data

Results flagged for a closer look

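Among 80 groups of 5 values, those of the 8 members and 2 merged rows in 8 groups, 1 held a library far from the others. Irgm2 in the NDI1 library of mouse 460 with piericidin A and LPS was at 536.6 CPM, below the next lowest at 739.4 CPM, a gap of 0.816 of the range on the log2 scale, over the limit for 5 samples. Chance flags about 1 in 20 groups. That mouse was also the lowest of the NDI1 group for Irgm1 (1352 CPM) and for Gbp7 (523.0 CPM).

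The effect of piericidin A on Irgm2 in resting cells differed between the genotypes in the test of the difference with the mouse as a block, by 0.99 on the log2 scale (NDI1 minus WT, adjusted p = 0.00825), where 8.96% of genes were called. Without the block it was not called (adjusted p = 0.0785), and of 19 alternatives 4 called it, with adjusted p from 0.00825 to 0.283. Irgm2 was lower with piericidin A in 5 of 5 WT mice and in 1 of 5 NDI1 mice.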

How the results depend on the processing

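The alternatives changed no direction among the called values of the 8 members and 2 merged rows in 10 comparisons: of 1857 values, 1825 stayed on the same side of the threshold with the same direction or uncalled, 15 lost a call, 17 gained one and 0 reversed. Of 319 counts of members called under alternatives, over 17 comparisons, 294 stayed within 1.5 times of the reported count. All counts for LPS, with or without piericidin A, did so. The counts that moved were these. A count without the number of all genes called beside it is not read as a result about the members. For piericidin A in WT, 2 members were called, where 1759 of 11853 genes were, and 1 with only the compared libraries, where 1489 of 11061 were. There were 0 with a log2 fold change of at least 1, 1 without mice 496 and 503, and 1 to 2 on leaving out a mouse. For piericidin A under LPS in WT, 0 were called and 3 with the replicate block, the paired fit within mice, where 34.5% of all genes were called. For the LPS effect with against without piericidin A in WT, 0 were called, where 563 of 11853 genes were, and 1 with library totals only, where 698 were. For NDI1 against WT with piericidin A, 1 was called, where 924 of 11853 genes were. There were 3 with DESeq2 (Gbp7 and Irgm2 higher, Gbp8 lower), where 1245 genes were called, and 2 with library totals only, where 1390 were. There were 0 with only the compared libraries, 0 with a log2 fold change of at least 1, 0 without mice 496 and 503, and 0 to 2 on leaving out a mouse. For the piericidin A effect between genotypes, 0 were called, where 150 of 11853 genes were. There was 1 (Irgm2) with DESeq2, with library totals only and with the replicate block, where 294, 146 and 1062 genes were, and 0 to 1 on leaving out a mouse. The cause of these moves was not tested, except that a threshold on size can only remove calls. With the replicate block, Gbp9 was also called for piericidin A in WT, the Gbp6/Gbp10 row for piericidin A under LPS in WT, and no other call changed. Comparisons between genotypes under 1 treatment have no paired analysis, since each mouse has 1 genotype. Depth limits Gbp4 and Gbp8 in cells without LPS, where libraries held from 1 to 26 counts.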
